A study of Mus musculus with 2 samples.

Results

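The genes that start S phase and copy DNA were followed in luminal cells of the mouse mammary gland with and without an inducible deletion of a microRNA cluster. The set was named by symbol and holds 39 genes, which were all found among the 16906 genes of the deposited table. It spans cyclin E and E2F genes, the licensing of origins, the activation of the replicative helicase, polymerases, the clamp and its loader, nucleotide supply, and chromatin behind the fork. The CKO library came from K8-CreERT2;miR-200c/141-flox/flox mice, in which a keratin 8 promoter drives a tamoxifen-inducible Cre recombinase in luminal cells. The Ctrl library came from miR-200c/141-flox/flox mice without Cre. Animals of both groups were C57BL/6, 8 weeks of age and injected with tamoxifen. The labels put the interval after tamoxifen at 4 weeks in one field and at 3 days in another. Each group had 1 library, made with a low-input kit from about 20000 cells sorted by flow cytometry, and the number of mice behind it is not stated. Only CKO mice carried the Cre, so its effects and those of the deletion cannot be told apart.

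Origins of replication are licensed in G1, when ORC, CDC6 and CDT1 load rings of MCM2 to MCM7 onto DNA. Cyclin E with CDK2, and the DBF4-dependent kinase CDC7, then recruit CDC45 and GINS, which turn each ring into a working helicase ahead of the polymerases. Many of these genes are transcribed by E2F factors once the RB protein has been phosphorylated, and their messengers peak around the G1/S border. Genes for mitosis, by contrast, carry other promoter elements and peak in G2. In the adult virgin mammary gland most luminal cells are out of the cycle, and those that divide respond to ovarian hormones. The microRNAs of the cluster, miR-200c and miR-141, keep epithelial cells from turning mesenchymal by lowering Zeb1 and Zeb2. The levels of the microRNAs themselves were not analysed here.

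Levels are in FPKM, the fragments of a gene after division by transcript length and library size, so they can be compared between genes. The values rest on about 11500000 reads in CKO and 12500000 reads in Ctrl. The whole reads behind each of the 39 genes were recovered from the p-values that the authors deposited, and combined reads per gene ran from 15 to 1780. A log2 ratio is CKO over Ctrl with 0.5 FPKM added to both, which draws weakly expressed genes toward 0. A read ratio is the ratio of reads after division by each library's total, with nothing added, and its 95% interval is the exact conditional (Clopper-Pearson) one. With 1 library per group no test across samples was possible and no p-value was computed. The intervals cover counting error only and leave out the spread between mice. They take reads as independent molecules, which PCR copies are not, so they can be too narrow even for counting error. A ratio in a bulk library also cannot tell a changed number of cycling cells from a changed amount of RNA per cell.

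The luminal markers were strong in both libraries. Krt18 stood at 10398.36 FPKM in CKO and 6606.79 FPKM in Ctrl, and Epcam at 1232.98 FPKM in CKO and 1189.50 FPKM in Ctrl. Of the 8 luminal markers 4 were above 0 and 4 below (Cdh1, Elf5, Foxa1 and Gata3), with a median log2 ratio of -0.02. Elf5 stood at 17.78 FPKM in CKO and 21.36 FPKM in Ctrl, and Gata3 at 39.24 FPKM in CKO and 45.63 FPKM in Ctrl. Markers of other cells were present as well. The 8 basal markers summed to 243.30 FPKM in CKO and 131.50 FPKM in Ctrl. Of the 8, 6 were at least 1.5-fold higher in CKO, where 2.94% of all genes were. The remaining list held 1 that was as much lower, Trp63, where 3.77% of all genes were. The 7 myeloid markers summed to 54.76 FPKM in CKO and 33.42 FPKM in Ctrl, of which Cd74 made up 34.79 FPKM in CKO and 17.98 FPKM in Ctrl. The median log2 ratio of the myeloid list was 0.22. The interval lay above 1 for 2 of its 7 genes, where 12.2% of all genes had such an interval. The 4 endothelial markers summed to 19.71 FPKM in CKO and 19.37 FPKM in Ctrl, and the 5 fibroblast markers to 42.18 FPKM in CKO and 39.13 FPKM in Ctrl. Dcn carried the fibroblast sum, while 3 of the 5 were below 0, with a median log2 ratio of -0.15 and Pdgfra at 0.31 FPKM in CKO and 1.05 FPKM in Ctrl. The 6 lymphoid markers summed to 1.17 FPKM in CKO and 1.34 FPKM in Ctrl, with Cd3e and Nkg7 at 0 reads in CKO.

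The replication genes were expressed at low to moderate levels in both libraries, and their order hardly differed. Across the 39 genes the CKO levels ran from 0.20 FPKM through a median of 4.07 FPKM to 61.35 FPKM. The Ctrl levels ran from 0.14 FPKM through a median of 3.26 FPKM to 58.53 FPKM. Orc1, the largest subunit of the origin recognition complex, was the lowest in both, and Pcna, the sliding clamp of the polymerases, the highest. For scale, the median of all genes in the table was 5.12 FPKM in CKO and 5.48 FPKM in Ctrl. In each library 9 of the 39 genes lay under 1 FPKM, 25 between 1 and 10 FPKM and 5 at 10 FPKM or more. Pcna alone made up 24.9% of the summed FPKM of the set in CKO and 25.1% in Ctrl. On the log2 scale the levels in CKO and Ctrl had a Pearson correlation of 0.988 across the 39 genes, which describes genes of 2 libraries and not replicates.

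**Figure D1:**
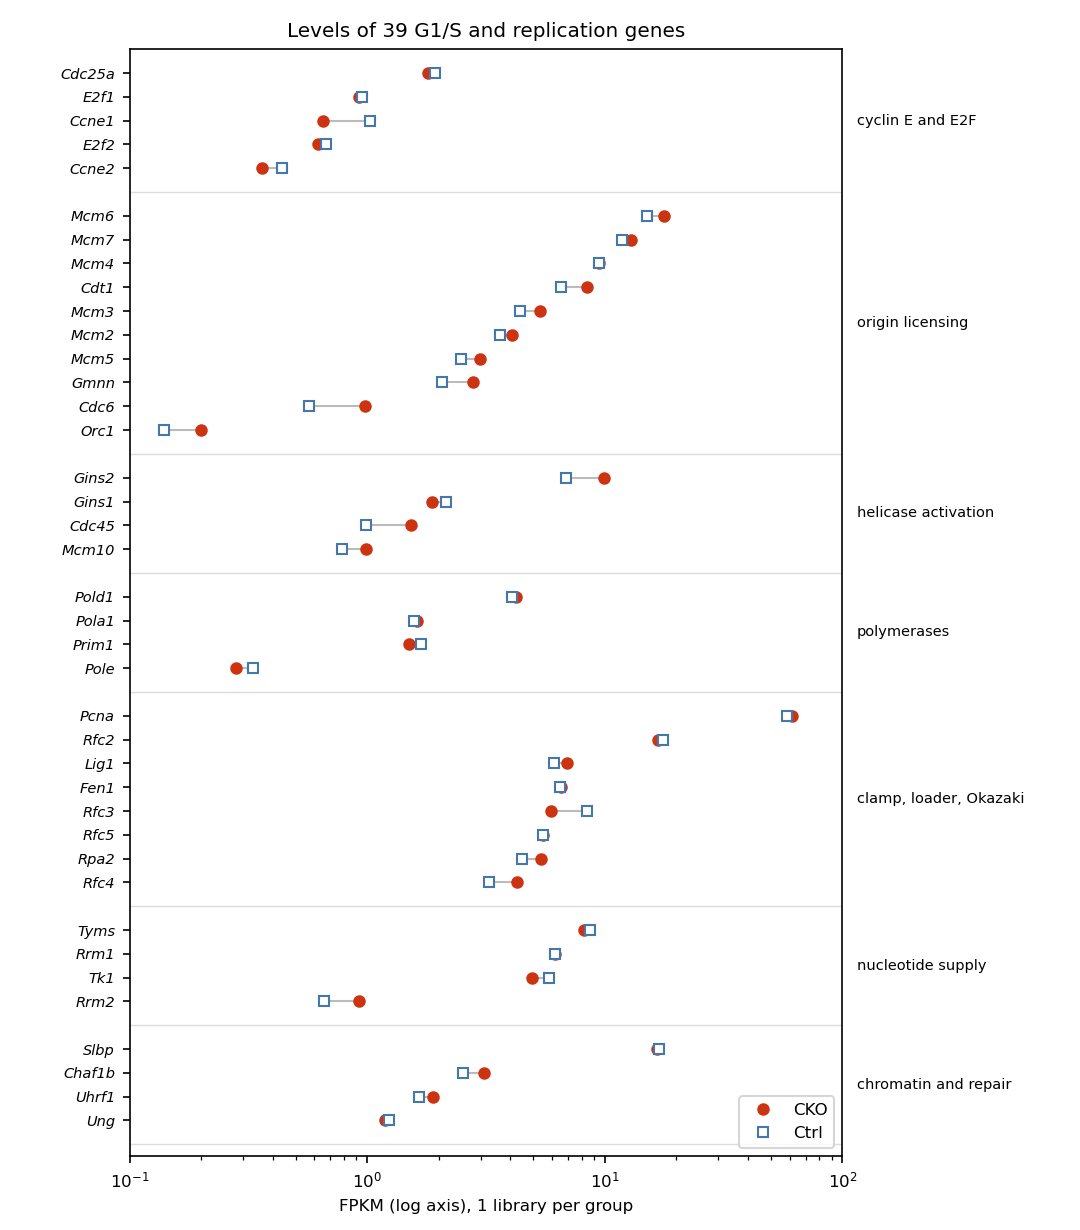
FPKM of each of the 39 genes on a log axis in the CKO library (filled circles) and the Ctrl library (open squares), grouped by role and sorted by level, with 1 library per group. The 2 symbols of a gene lie close together over a range from 0.14 to 61.35 FPKM, and the gaps are widest among weakly expressed genes and at Gins2 and Rfc3.

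With 0.5 FPKM added, none of the 39 genes differed by 1.5-fold between the libraries. The count was 0 higher in CKO, where 2.94% of all 16906 genes passed that ratio, and 0 lower in CKO, where 3.77% did. The largest log2 ratio upward was 0.50, a 1.42-fold ratio, at Gins2, a subunit of the GINS complex. The largest downward was -0.48, a 1.39-fold ratio, at Rfc3, a small subunit of the clamp loader. In all, 22 genes were above 0 and 17 below, with a median log2 ratio of 0.05, beside -0.03 over all genes, of which 7486 were above 0 and 9155 below. With nothing added, the FPKM ratio passed 1.5-fold upward at Cdc6 (log2 0.78) and Cdc45 (0.63) and downward at Ccne1 (-0.66), and the read ratio did so upward at Cdc6 and Orc1 and downward at Ccne1. All 4 had wide intervals that held a ratio of 1. The authors called none of the 39 genes; their deposited table called 0.615% of all genes up and 0.639% down.

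Most of these ratios lay within counting error. The interval of the read ratio held 1 for 35 of the 39 genes. It lay above 1 for Cdt1, Gins2 and Mcm6 (7.69% of the set), where 11.2% of 10370 genes in the same range of reads had such an interval. It lay below 1 for Rfc3 alone (2.56% of the set), where 17.8% of those 10370 genes did. Both shares are under the background, and when the libraries were set to equal sums of FPKM only Gins2 kept an interval above 1. Gins2 also had the lowest false discovery rate of the 39 genes in the authors' deposited table, which compares 2 libraries and not 2 conditions. The summed reads of the set were 6002 in CKO and 6184 in Ctrl, equal to 0.052% of all reads in CKO and 0.049% in Ctrl. The log2 ratio of these shares was 0.08 (95% interval 0.03 to 0.14), and it was 0.01 with equal sums of FPKM.

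**Figure D2:**
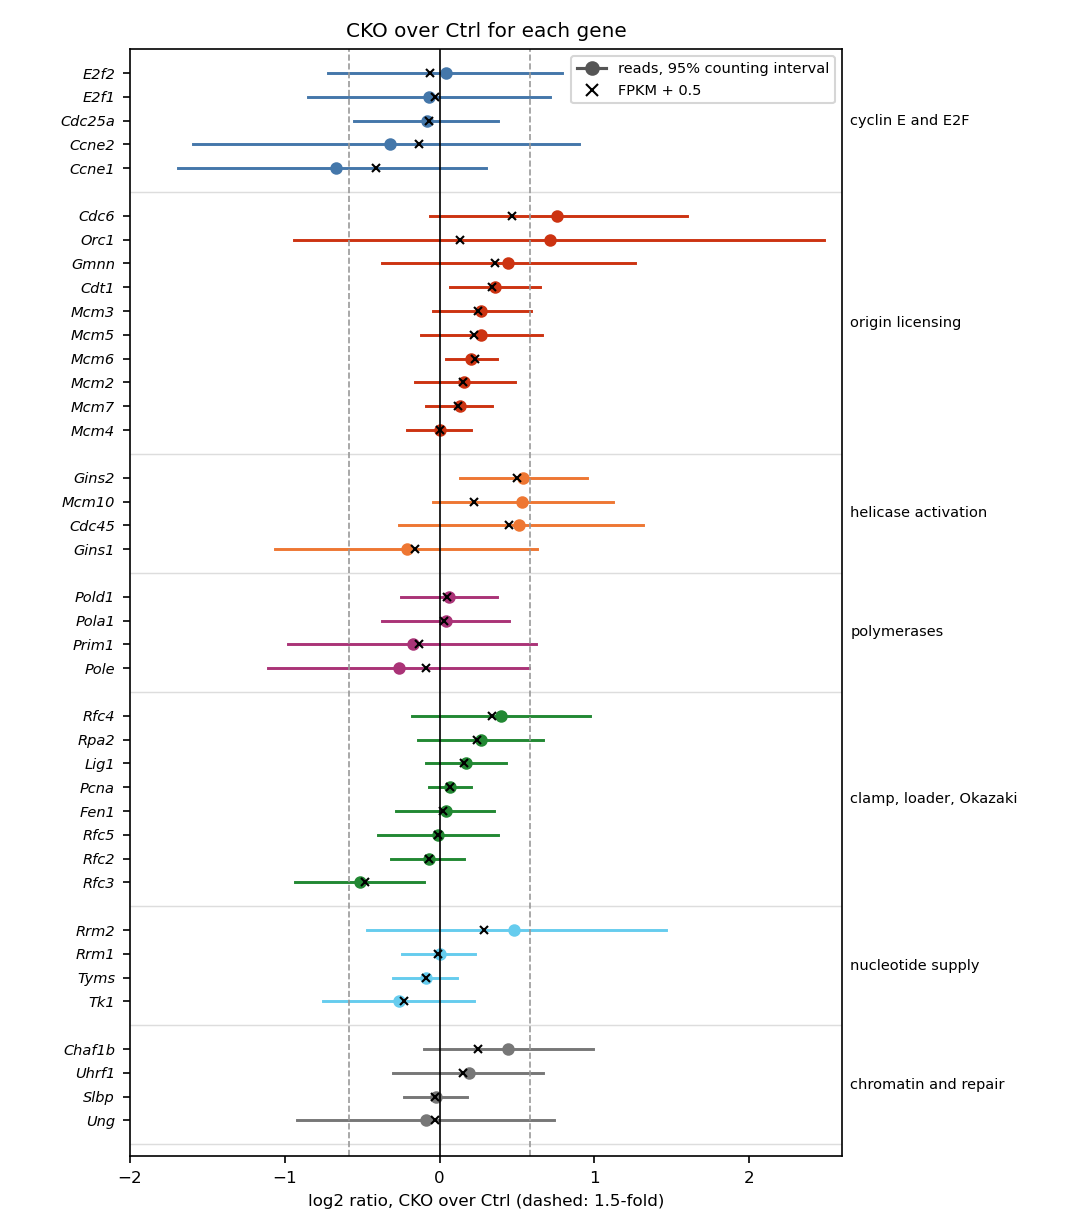
Log2 ratio of CKO over Ctrl for each gene, as the ratio of reads with its 95% counting interval (circles and bars) and as the ratio of FPKM with 0.5 added (crosses), grouped by role, with dashed lines at 1.5-fold. All crosses lie between -0.48 and 0.50, inside the dashed lines, and 35 of 39 bars cross 0.

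With 0.5 FPKM added, the genes that trigger S phase were the one group with every member below 0. By read ratio E2f2 was at 0.04, and the intervals of all 5 genes held a ratio of 1. Ccne1 encodes cyclin E1, the partner of CDK2 at the start of S phase, and stood at 0.65 FPKM (15 reads) in CKO and 1.03 FPKM (26 reads) in Ctrl, a log2 ratio of -0.41. Its read ratio of -0.67 had an interval from -1.69 to 0.30. Ccne2, encoding cyclin E2, stood at 0.36 FPKM in CKO and 0.44 FPKM in Ctrl. Both cyclins rest on so few reads that no difference was detectable at this depth. The activator E2F genes were close to equal. E2f1 stood at 0.92 FPKM in CKO and 0.95 FPKM in Ctrl, and E2f2 at 0.62 FPKM in CKO and 0.67 FPKM in Ctrl. Cdc25a, the phosphatase that removes inhibitory phosphate from CDK2, stood at 1.81 FPKM (76 reads) in CKO and 1.93 FPKM (88 reads) in Ctrl. The median log2 ratio of these 5 genes was -0.07. Together they had 161 reads in CKO and 194 in Ctrl, a log2 read ratio of -0.14 (interval -0.45 to 0.17).

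Licensing genes lay mostly above 0, by little each. Of the 10, 9 were above 0 and Mcm4 was level, with a median log2 ratio of 0.23. Their summed reads were 2103 in CKO and 2023 in Ctrl, a log2 read ratio of 0.18 (interval 0.09 to 0.27), which is 1.14-fold, and 0.11 with equal sums of FPKM. Orc1 was barely read, with 9 reads (0.20 FPKM) in CKO and 6 reads (0.14 FPKM) in Ctrl. Cdc6, the ATPase that joins ORC to load the helicase, stood at 0.98 FPKM (34 reads) in CKO and 0.57 FPKM (22 reads) in Ctrl. Its log2 ratio was 0.47, and the read ratio of 0.76 had an interval from -0.06 to 1.60. Cdt1, its partner in loading, was better covered.

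Cdt1 stood at 8.42 FPKM (216 reads) in CKO and 6.57 FPKM (184 reads) in Ctrl. The log2 ratio was 0.34, and the read ratio of 0.36 had an interval from 0.07 to 0.65, or -0.01 to 0.57 with equal sums of FPKM. Gmnn, encoding geminin, which binds CDT1 and blocks relicensing, stood at 2.78 FPKM (31 reads) in CKO and 2.06 FPKM (25 reads) in Ctrl, a log2 ratio of 0.36. The interval for Gmnn ran from -0.37 to 1.26, so no difference in it was detectable at this depth. The authors' deposited table gave Cdt1 a false discovery rate of 0.0572.

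The 6 MCM subunits, which form a ring of 1 copy each, were far from equal in level. Their order was the same in both libraries: Mcm6, Mcm7, Mcm4, Mcm3, Mcm2 and Mcm5. The top of that order was 5.97 times the bottom in CKO and 6.05 times in Ctrl. Mcm6 (chr1:128331590-128359664 on the minus strand, GRCm38) stood at 17.73 FPKM (612 reads) in CKO and 15.01 FPKM (580 reads) in Ctrl, a log2 ratio of 0.23 with a read-ratio interval from 0.04 to 0.37, or -0.04 to 0.29 with equal sums of FPKM. Mcm3 stood at 5.32 FPKM in CKO and 4.40 FPKM in Ctrl, and Mcm5 at 2.97 FPKM in CKO and 2.48 FPKM in Ctrl, with log2 ratios of 0.25 for Mcm3 and 0.22 for Mcm5. Mcm7, whose locus also holds Mir25 and Mir93, stood at 12.83 FPKM (361 reads) in CKO and 11.78 FPKM (361 reads) in Ctrl. Mcm2 stood at 4.07 FPKM in CKO and 3.63 FPKM in Ctrl. Mcm4 was 9.43 FPKM (389 reads) in CKO and 9.46 FPKM (426 reads) in Ctrl, and its interval ran from -0.21 to 0.20. Summed over the 6 subunits, reads were 1813 in CKO and 1786 in Ctrl, a log2 read ratio of 0.15 (interval 0.05 to 0.24) and 0.07 with equal sums of FPKM.

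The letters of the E2F motif were found in the promoters of 7 licensing genes, and the matched stretches are shown. The motif was searched as TTTCCCGC, TTTCGCGC, TTTGCCGC and TTTGGCGC on both strands, in windows of 250 bases before to 50 bases after each RefSeq start (GRCm38.p6). A window was at hand for 32 of the 39 genes and was not for Gins2, Gmnn, Ccne2, Pole, Gins1, Rfc2 and Mcm4. Each stretch of 30 bases runs 5′ to 3′ along the gene's strand, with the match in capitals, and a match on the other strand appears as its reverse complement. Positions give the first matched base counted from the start site as 1. The matches overlap each other at Mcm5 and at the first Mcm6 stretch. Mcm3 held a second match, TTTGGCGC at position 39, which is not drawn out.
Orc1, chr4:108579416-108579445, plus strand, position -27: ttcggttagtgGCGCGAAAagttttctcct
Cdc6, chr11:98908002-98908031, plus strand, position -138: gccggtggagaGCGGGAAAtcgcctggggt
Cdt1, chr8:122568035-122568064, plus strand, position 33: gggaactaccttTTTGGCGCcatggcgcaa
Mcm3, chr1:20820275-20820304, minus strand, position 20: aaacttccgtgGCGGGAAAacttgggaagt
Mcm5, chr8:75109347-75109376, plus strand, position -153: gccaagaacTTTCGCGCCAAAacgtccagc
Mcm6, chr1:128359795-128359824, minus strand, position -110: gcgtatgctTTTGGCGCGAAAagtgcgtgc
Mcm6, chr1:128359734-128359763, minus strand, position -47: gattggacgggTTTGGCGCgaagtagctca
Mcm7, chr5:138172030-138172059, minus strand, position -165: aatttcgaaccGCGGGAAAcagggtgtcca
Mcm7, chr5:138171849-138171878, minus strand, position 17: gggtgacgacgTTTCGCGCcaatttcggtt

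Of the 8 licensing genes with a window, 7 held a match (87.5%); Mcm2 held none. Over all 32 replication genes the count was 14 (43.8%), and over all genes of the table it was 543 of 13252 (4.10%). The share differed between roles, with 2 of 4 S-phase trigger genes, 2 of 3 polymerase genes, 2 of 7 clamp and fork genes, 1 of 4 chromatin genes, and 0 of 4 nucleotide and 0 of 2 helicase activation genes. Among the 14 genes that held one, the median log2 ratio was 0.14 and 11 were above 0, and among the 18 that held none it was 0.01 and 9 were above 0. Of the 14, 7 are licensing genes, so the motif and the role cannot be told apart. A match describes the letters of the window and is not a binding site, and its absence says only that these letters are not there.

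The Mcm6 window is shown whole, since it held 3 matches in the gene with the narrowest interval above 1. It covers chr1:128359656-128359955 on the minus strand, with E2F matches in capitals.
Mcm6 promoter: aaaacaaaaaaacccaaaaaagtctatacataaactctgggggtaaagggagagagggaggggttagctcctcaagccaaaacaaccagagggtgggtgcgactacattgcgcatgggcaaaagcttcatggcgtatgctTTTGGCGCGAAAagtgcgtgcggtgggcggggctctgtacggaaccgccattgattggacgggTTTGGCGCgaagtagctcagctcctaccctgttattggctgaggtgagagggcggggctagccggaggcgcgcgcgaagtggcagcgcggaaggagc

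Helicase activation held the largest median, at a log2 ratio of 0.33 over 4 genes. Gins2 (chr8:120578633-120589304, minus strand) stood at 9.91 FPKM (117 reads) in CKO and 6.84 FPKM (88 reads) in Ctrl. Its read ratio of 0.54 had an interval from 0.13 to 0.95. Gins2 exons in GENCODE M21 share 2758 bases with Gse1 on the opposite strand. The transcript length deposited for Gins2 is 1061 bases, so most of that overlap lies outside the counted transcript. Use of strand in counting is not stated, and whether reads of Gse1 entered the Gins2 count was not tested. The same holds for other members with exons that overlap a gene on the opposite strand. Apart from Fen1 these are Ccne2, Orc1, Mcm7, Cdc45, Pole, Rfc2, Rfc4, Rfc5, Lig1, Tk1 and Slbp. The longest of their overlaps was 952 bases, between Rfc2 and Lat2, and Rfc4 shares 194 bases with Eif4a2. Cdc45, the factor that travels with MCM and GINS, stood at 1.53 FPKM (34 reads) in CKO and 0.99 FPKM (26 reads) in Ctrl, a log2 ratio of 0.45 with an interval from -0.26 to 1.31. Mcm10, which helps the assembled helicase start to unwind, stood at 0.99 FPKM (61 reads) in CKO and 0.78 FPKM (46 reads) in Ctrl. Gins1, in the same complex as Gins2, lay on the other side, at 1.88 FPKM (23 reads) in CKO and 2.15 FPKM (29 reads) in Ctrl. The 4 genes summed to 235 reads in CKO and 189 in Ctrl, a log2 read ratio of 0.44 (interval 0.16 to 0.73), and Gins2 supplied 117 of these reads in CKO and 88 in Ctrl.

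The polymerase genes showed no shift. Pola1, the catalytic subunit of the polymerase that starts each strand, stood at 1.62 FPKM (100 reads) in CKO and 1.57 FPKM (106 reads) in Ctrl. Its primase partner Prim1 had 26 reads in CKO and 32 in Ctrl. Pold1, the lagging-strand polymerase, stood at 4.24 FPKM (167 reads) in CKO and 4.07 FPKM (175 reads) in Ctrl, with an interval from -0.25 to 0.37. Pole, the leading-strand polymerase, was the weakest of them, at 0.28 FPKM in CKO and 0.33 FPKM in Ctrl. Together they had 316 reads in CKO and 343 in Ctrl, a log2 read ratio of 0.01 (interval -0.22 to 0.23).

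The clamp, its loader and the genes that finish Okazaki fragments also summed to nearly equal shares. Their reads were 1932 in CKO and 2051 in Ctrl, a log2 read ratio of 0.04 (interval -0.05 to 0.13) that changed to -0.04 with equal sums of FPKM. Pcna stood at 61.35 FPKM (872 reads) in CKO and 58.53 FPKM (908 reads) in Ctrl, with an interval from -0.07 to 0.20. A second pair of whole reads fitted the Pcna p-value, 997 in CKO and 1138 in Ctrl, with a log2 read ratio of -0.06. Pcna has 2 annotated pseudogenes, neither of them in the table, so its reads are uncertain. Fen1, the flap endonuclease, stood at 6.54 FPKM in CKO and 6.46 FPKM in Ctrl, and its exons share 1909 bases with the antisense gene Gm10143. Lig1, the ligase that seals the fragments, stood at 6.92 FPKM in CKO and 6.12 FPKM in Ctrl. Rpa2, a subunit of the single-strand binding protein, stood at 5.38 FPKM in CKO and 4.47 FPKM in Ctrl.

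Among the small subunits of the clamp loader, only Rfc3 had an interval that excluded 1. Rfc3 (chr5:151642756-151651242, minus strand) stood at 5.92 FPKM (81 reads) in CKO and 8.43 FPKM (126 reads) in Ctrl, and its read ratio of -0.51 had an interval from -0.93 to -0.10. Rfc4 stood at 4.26 FPKM (59 reads) in CKO and 3.26 FPKM (49 reads) in Ctrl, with an interval from -0.18 to 0.97. Rfc2 stood at 16.68 FPKM in CKO and 17.57 FPKM in Ctrl, and Rfc5 at 5.48 FPKM in CKO and 5.52 FPKM in Ctrl. The order Rfc2, Rfc3, Rfc5, Rfc4 was the same in both libraries, and its top was 3.92 times its bottom in CKO and 5.39 times in Ctrl. The 4 subunits summed to 536 reads in CKO and 625 in Ctrl, a log2 read ratio of -0.09 (interval -0.26 to 0.07). The promoter of Rfc3, the one gene whose interval lay below 1, held 2 E2F matches within 30 bases, on opposite strands and with the first starting at position -10.
Rfc3, chr5:151651195-151651224, minus strand: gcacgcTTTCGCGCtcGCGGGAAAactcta

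Nucleotide supply showed no difference beyond counting error. Rrm1, the large subunit of ribonucleotide reductase, was equal at 6.17 FPKM (284 reads) in CKO and 6.20 FPKM (311 reads) in Ctrl. Rrm2, the small subunit made in S phase, was scarce at 0.92 FPKM (23 reads) in CKO and 0.66 FPKM (18 reads) in Ctrl. Its read ratio of 0.48 had an interval from -0.47 to 1.46. Tk1, the thymidine kinase of cycling cells, stood at 4.92 FPKM (65 reads) in CKO and 5.85 FPKM (85 reads) in Ctrl. Tyms, thymidylate synthase, stood at 8.14 FPKM (355 reads) in CKO and 8.68 FPKM (414 reads) in Ctrl, with an interval from -0.30 to 0.11. The Tyms reads are uncertain, since it has 1 annotated pseudogene outside the table and a second pair of reads, 380 in CKO and 389 in Ctrl, fitted its p-value with a log2 read ratio of 0.09. The 4 genes summed to 727 reads in CKO and 828 in Ctrl, a log2 read ratio of -0.06 (interval -0.21 to 0.09). With the second pair for Tyms the sum was 752 reads in CKO and 803 in Ctrl, and the ratio 0.03 (interval -0.11 to 0.18).

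Chromatin, histone RNA and base repair genes were level as a group, with 528 reads in CKO and 556 in Ctrl and a log2 read ratio of 0.05 (interval -0.12 to 0.23). Uhrf1, which brings DNA methylation to new strands, stood at 1.89 FPKM in CKO and 1.66 FPKM in Ctrl. Chaf1b, a subunit of the CAF-1 histone chaperone, stood at 3.11 FPKM (66 reads) in CKO and 2.53 FPKM (53 reads) in Ctrl. Slbp, which binds the stem-loop of histone messengers, stood at 16.52 FPKM in CKO and 16.86 FPKM in Ctrl. Ung, which removes uracil from DNA, stood at 1.19 FPKM in CKO and 1.23 FPKM in Ctrl.

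Set against each other within the same 2 libraries, the licensing genes and the clamp and fork genes differed by little, with a counting interval that excluded 0. The difference of log2 read ratios, licensing minus clamp and fork, was 0.14 (interval 0.02 to 0.27). With the second pair of reads for Pcna that difference was 0.21 (0.08 to 0.33). Licensing minus nucleotide supply was 0.24 (0.07 to 0.41), but 0.15 (-0.02 to 0.32) with the second pair for Tyms, so its exclusion of 0 rests on which pair is right. Licensing minus polymerases, at 0.17 (-0.07 to 0.42), and minus chromatin genes, at 0.13 (-0.07 to 0.33), had intervals that held 0, and licensing minus the S-phase trigger genes was 0.32 (0.00 to 0.65). Helicase activation minus licensing was 0.26 (-0.04 to 0.56). These differences do not depend on library scaling, but genes of 1 library are not replicates and the spread between mice is unknown.

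**Figure D3:**
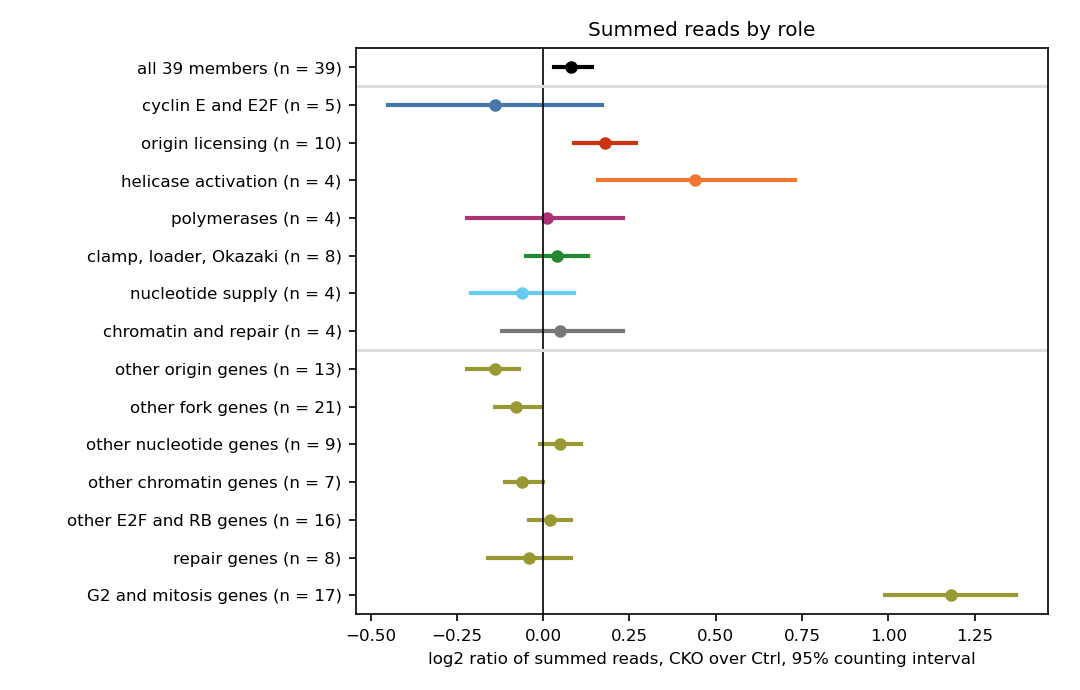
Log2 ratio of summed reads, CKO over Ctrl, with 95% counting intervals for the 39 genes, their 7 roles and 7 further lists of cell-cycle genes, where n is the number of genes. The replication roles lie between -0.14 and 0.44, and the list of G2 and mitosis genes lies apart at 1.18.

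A further 91 cell-cycle and replication genes fell into 7 lists. At least 1.5-fold higher in CKO were 12 of the 91, where 2.94% of all genes were, and 9 of these 12 were G2 and mitosis genes. None of the 91 was as much lower, where 3.77% of all genes were. Outside G2 and mitosis, the interval lay above 1 for 10 of 74 genes and below 1 for 12, beside 12.2% of all genes above and 17.7% below. The median log2 ratio of the 91 was 0.11. The 13 other origin genes had no member past 1.5-fold and a summed read ratio of -0.14 (interval -0.22 to -0.07), with the ORC subunit Orc3 at 5.86 FPKM in CKO and 7.71 FPKM in Ctrl. The 21 other fork genes had 1 member past it, the PCNA-binding Pclaf, at 1.05 FPKM (28 reads) in CKO and 0.36 FPKM (10 reads) in Ctrl. Their summed read ratio was -0.08 (interval -0.14 to -0.01). Clspn, the checkpoint adaptor claspin, had 23 reads in CKO and 7 in Ctrl, while Wdhd1, a polymerase alpha partner, stood at 2.59 FPKM in CKO and 3.76 FPKM in Ctrl.

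Among 9 other nucleotide genes, the dCMP deaminase Dctd stood at 2.64 FPKM (48 reads) in CKO and 1.31 FPKM (27 reads) in Ctrl and was the 1 past 1.5-fold. The 7 other chromatin genes and the 8 repair genes had none. The maintenance methyltransferase Dnmt1 stood at 52.36 FPKM in CKO and 57.03 FPKM in Ctrl. Among 16 other E2F and RB genes the repressor E2f8 was past it, with 31 reads (0.77 FPKM) in CKO and 12 reads (0.28 FPKM) in Ctrl. Tfdp1, the partner of E2F proteins on DNA, stood at 19.12 FPKM (583 reads) in CKO and 14.58 FPKM (485 reads) in Ctrl, with a read ratio of 0.39 and an interval from 0.22 to 0.57. Rb1, the retinoblastoma protein that holds E2F back, stood at 10.55 FPKM (556 reads) in CKO and 13.07 FPKM (735 reads) in Ctrl, with an interval from -0.44 to -0.11. Upstream of RB, the cyclin D1 gene Ccnd1 stood at 19.74 FPKM (860 reads) in CKO and 11.95 FPKM (568 reads) in Ctrl, a log2 ratio of 0.70 with an interval from 0.57 to 0.88.

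The G2 and mitosis genes lay above their Ctrl values throughout, at very low levels. All 17 were above 0, with a median log2 ratio of 0.71, and 9 were past 1.5-fold. They summed to 686 reads in CKO and 331 in Ctrl, a log2 read ratio of 1.18 (interval 0.99 to 1.37). The difference from the 39 replication genes in the same 2 libraries was 1.09 (interval 0.90 to 1.29). Only 6 of the 17 had a mean of at least 1 FPKM. The 17 summed to 24.54 FPKM in CKO and 11.05 FPKM in Ctrl. That is a small fraction of the 246.43 FPKM in CKO and 233.57 FPKM in Ctrl of the replication genes, so the difference sets unlike levels side by side. The 9 replication genes with a mean under 1 FPKM had log2 read ratios from -0.67 (Ccne1) to 0.76 (Cdc6), and each interval held a ratio of 1. The 74 further genes outside G2 and mitosis ran from -0.77 (Mcm8) to 1.84 (Clspn). Cdk1, the kinase of mitotic entry, had 28 reads in CKO and 2 in Ctrl, a log2 read ratio of 3.93 (interval 1.95 to 7.05). Its cyclin gene Ccnb1 had 20 reads in CKO and 1 in Ctrl, with an interval from 1.81 to 9.82. Top2a, the topoisomerase that untangles sister chromatids, had 86 reads in CKO and 30 in Ctrl. The reads of Cdk1, Ccnb1 and Top2a, like those of Ccnd1, were estimated from FPKM, since genes with very small p-values were not solved. Mki67, a protein of the mitotic chromosome surface used to mark cycling cells, had 94 reads in CKO and 49 in Ctrl. Of the marker genes given above, 6 of 8 basal and 2 of 7 myeloid ones were at least 1.5-fold higher in CKO too, beside 2.94% of all genes. The part of those cells in the G2 and mitosis counts was not tested.

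The promoters of these lists differed in their motifs as well as in their ratios. The CCAAT box (CCAAT, both strands) was found in 19 of 32 windows of the replication genes (59.4%), 13 of 15 of the G2 and mitosis genes (86.7%) and 42.3% of all windows. The cell-cycle homology region, searched as TTTGAA on both strands, was found in 4 of 32 replication windows (12.5%), 10 of 15 G2 and mitosis windows (66.7%) and 15.3% of all windows. The E2F motif ran the other way, with 43.8% of the replication windows against 1 of 15 G2 and mitosis windows (6.67%).

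**Figure D4:**
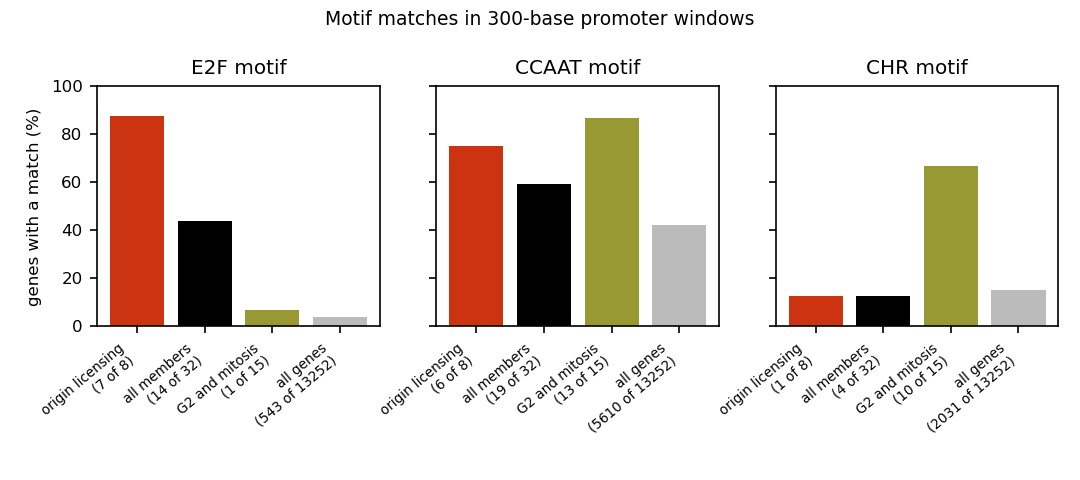
Percent of promoter windows that hold the E2F, CCAAT or cell-cycle homology region (CHR) motif in origin licensing genes, all replication genes, G2 and mitosis genes and all genes of the table, with counts under each bar. E2F matches are commonest in licensing genes (87.5%) and CHR matches in G2 and mitosis genes (66.7%).

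Direct seed matches to the deleted microRNAs were few among the replication genes. The mature sequences (RefSeq, GRCm38.p6, chromosome 6, minus strand) are shown with the seed, bases 2 to 8, in capitals.
miR-141-3p, chr6:124717917-124717938: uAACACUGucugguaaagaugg
miR-200c-3p, chr6:124718324-124718346: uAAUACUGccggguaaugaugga
The seeds differ by 1 base, and the matching 7-mers are CAGTGTT for miR-141-3p and CAGTATT for miR-200c-3p. With the longest 3′ UTR that GENCODE M21 gives for each gene, 6 of the 39 replication genes held either match (15.4%), beside 4431 of 15759 genes of the table (28.1%). The UTRs of the set were shorter, with a median of 780 bases beside 1096 bases over all genes. For miR-141-3p the counts were 3 of 39 (7.69%) and 19.3% of all genes, and for miR-200c-3p they were 4 of 39 (10.3%) and 14.3%.

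Cdc25a held the most, with 3 matches, and is shown with the miR-200c-3p sites of Mcm4, Rrm1 and Rrm2. Sequences are 28 bases of GRCm38 along the gene's strand, with the match in capitals.
Cdc25a, miR-200c-3p, chr9:109892852-109892879: ggcgctgcagacCAGTATTgctgctact
Cdc25a, miR-141-3p, chr9:109892965-109892992: ttctgcattttgCAGTGTTcctcgggga
Cdc25a, miR-141-3p, chr9:109893212-109893239: ggaatatccaatCAGTGTTgggtgggca
Mcm4, miR-200c-3p, chr16:15624598-15624625: gagtctgaaaggCAGTATTccactatat
Rrm1, miR-200c-3p, chr7:102469268-102469295: atacacataatgCAGTATTtgcacttgt
Rrm2, miR-200c-3p, chr12:24713725-24713752: ttttttaatgctCAGTATTatcttgaag
Fen1 held 2 miR-141-3p matches and Ccne2 held 1. The log2 ratios of these 6 genes ran from -0.13 to 0.29, with a median of -0.01 and 2 above 0. Among the other 33 genes the median was 0.12 and 20 were above 0. Cdc25a, with 3 matches, had a log2 ratio of -0.07 and an interval from -0.55 to 0.38, and Rrm2 was the highest of the 6 at 0.29. Some of the 6 genes rest on few reads, such as Ccne2 with 11 in CKO and 15 in Ctrl. An effect of the matches on these ratios was not tested.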

How the data were processed

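RNA from sorted luminal cells was sequenced in 1 CKO and 1 Ctrl library. The submitters' processing notes name HISAT, Bowtie2, RSEM and mm10, without versions. The deposited table gives 1 value per gene and library under a header with no unit; the authors' deposited values are FPKM, since values times length in kilobases summed to 999909 in CKO and 999609 in Ctrl, with a floor of 0.01. The authors' deposited log2 fold change, p-value and false discovery rate compare the reads of 2 libraries, and their calls had a false discovery rate of at most 0.000962 and a log2 ratio of at least 1.00 in size.

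Ratios were computed on log2(FPKM + 0.5), without further scaling, and counted at 1.5-fold over all 16906 genes. Whole reads were solved from the deposited p-values, taken as those of a negative binomial comparison of 2 counts with 0.4779 of the reads in CKO, within 25% of the reads implied by the FPKM. A solution existed for 98.8% of 14664 genes searched. The 2242 genes not searched had over 2500 reads in a library by their FPKM, or a very small deposited p-value. They and the 171 genes with no solution kept reads estimated from their FPKM, also in the shares over all genes. Of the 39 members, 37 had 1 solution. Pcna and Tyms had 2, of which the one nearer to the FPKM was used. The solving step was tested on simulated data made with the same model, which cannot show that the deposited p-values follow it. Differences between roles are log2 odds ratios of summed reads.

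The 39 genes, roles, further lists and marker lists were chosen with earlier results of these data known. Every one of the 39 genes is named; of further lists the text names Ccnd1, Mki67 and up to 4 genes per list with the interval bound farthest from 0. Single markers and genes overlapping the 39 were named after their values were seen. Promoters and microRNAs are from RefSeq (GRCm38.p6) and UTRs from GENCODE M21. Alternatives were other pseudocounts, a minimum level, 2 other scalings, read ratios and a stricter fold. Python 3.11.15, scipy 1.17.1 and pandas 2.3.3 were used.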

Additional observations from a re-analysis of the deposited data

How the results depend on the processing

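No paired analysis was possible because each group had 1 library. All 156 single-gene ratios recomputed with 0.1 or 1 FPKM added, as read ratios or after centring moved by less than their counting error. The counts of 0 higher and 0 lower among the 39 genes held under both other scalings. They also held with 1 FPKM added, a minimum mean of 1 FPKM, 2-fold and the interval rule. Those settings can only keep or lower such a count, so they could not have changed a count of 0. With 0.1 FPKM added there were 1 higher (Cdc6) and 1 lower (Ccne1), and by read ratio 2 higher (Cdc6 and Orc1) and 1 lower (Ccne1). Orc1 was at a log2 FPKM ratio of 0.51 with nothing added and passed by its solved reads. The median of the set was -0.02 with equal sums of FPKM, where Pola1, Pold1, Pcna and Fen1 changed sign. Centring on the median changed the sign of Mcm4, Rfc5 and Rrm1, and the read ratio that of E2f2, all close to 0. The 12 further genes past 1.5-fold became 24 with 0.1 FPKM added, 24 by read ratio, 6 where a mean of 1 FPKM was required and 5 at 2-fold. The log2 ratio of summed reads lay between 0.08 and 0.09 without Pcna, as summed FPKM and after centring. The other whole reads of Pcna and Tyms, an alternative added after seeing the data, gave 0.07. In another added then, equal sums of FPKM left 1 gene instead of 3 with an interval above 1. Of the 39 genes, 9 had a mean under 1 FPKM, and small differences in them are not detectable at this depth.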
